A study of Mus musculus with 6 samples.

Results

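The immediate early genes Fos, Fosb, Fosl2, Jun, Junb, Egr1, Egr2, Ier2, Nr4a1 and Klf4 were followed in cultured neural stem cells. They were taken by gene name from a deposited table of raw counts for 27372 genes, where all 10 were found, and all 10 passed the filter on low counts. Immediate early genes are switched on within minutes of a growth factor, depolarisation or stress signal, from transcription factors already present in the cell, and their RNAs are short-lived. Most encode transcription factors that carry the signal on to later genes. Kinases of the ERK pathway reach them through serum response factor (SRF) with its ETS partners, and cAMP and calcium signals reach them through CREB. In cultures of neural stem cells the mitogens EGF and FGF feed the ERK pathway, and tissue handling is known to raise the same genes.

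The counts come from bulk RNA-seq of neural stem cells of postnatal day 7 mice, kept in DMEM/F12 proliferation medium with B27, EGF, bFGF and BSA, with RNA taken on day 7 of culture. There are 3 control libraries of WT genotype and 3 libraries with the genotype label Sirt6 knockout, which the series text calls Sirt6 cKO. No Cre driver is named for that allele in the labels, and separate animals, litters or cultures are not stated for the replicates, so each p-value reflects only how much these samples vary, and that variation may be technical. Library totals ran from 17198852 to 18297275 counts. As a check of the labels, Sirt6 stood at 21.9, 15.8 and 14.9 CPM in controls 1 to 3, set beside 25.6, 29.4 and 25.3 CPM in the knockout-labelled libraries, CPM being counts scaled to a common library size after TMM. The targeted gene thus lay above every control in each library labelled knockout, although it did not pass the test (log2 fold change 0.61 ± 0.19 SE, edgeR adjusted p = 0.998). That goes against a label of lost Sirt6 RNA. Counts per gene do not show single exons, however, so the genotype cannot be told from them. Each direction below is therefore one between labels. Summed CPM of 4 Y-linked genes was 67.5, 234 and 0 in controls 1 to 3 and at most 0.755 in the knockout-labelled libraries. Controls 1 and 2 thus held male cells, while control 3 and the knockout-labelled libraries held few or none. In the main fit sex is therefore mixed with the label, and the 2 cannot be told apart. The fit was repeated with control 3 as the lone control, and the values of that fit are given beside the members that moved. The neural stem cell genes of a list of 12, Sox2, Nes and Fabp7 among them, summed to 9261 to 11575 CPM in the controls and 9462 to 11592 CPM in the knockout-labelled libraries. Microglial genes summed to 3.50 to 16.7 CPM over the 6 libraries, endothelial genes to 2.98 to 8.91 CPM, and mural and fibroblast genes to 0.969 to 2.09 CPM.

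Proximal promoters were searched for the sequences that SRF, CREB, EGR and AP-1 factors are known to bind. RefSeq windows on GRCm38.p6, from 250 bases before to 50 bases after the start site, were searched for 8 of the 10 members. The promoters of Egr1 and Ier2 were not searched, so whether they hold any of these sequences, the SRF sequence included, was not tested. Of the 8, 6 contain the CRE core TGACG on either strand, the core of the CREB recognition sequence, against 23.0% of the 27025 genes with a window. The members with it are Fos, Fosb, Junb, Egr2, Nr4a1 and Klf4, and those without are Jun and Fosl2. The CArG box, the SRF recognition sequence, was found in Egr2 alone of the 8, against 1.81% of genes. The EGR site GCGNGGGCG was found in 4 of the 8, Fosb, Fosl2, Klf4 and Nr4a1, against 6.27% of genes. The AP-1 site TGANTCA was found in 0 of the 8 against 8.97%, and the full CRE TGACGTCA, which contains the core on both strands, in 0 of the 8 against 2.03%. A match is a string of letters and not a shown binding site, and these windows are short. The windows of 4 members that the values below turn on are printed 5′ to 3′ with the CRE core (TGACG, or CGTCA where it is on the other strand) and the CArG box in capitals. Fos lies at chr12:85473640-85473939 on the plus strand, Fosb at chr7:19309996-19310295 on the minus strand, Nr4a1 at chr15:101266596-101266895 on the plus strand, and the Egr2 window shown, 1 of its 5, at chr10:67537619-67537918 on the plus strand.
Fos: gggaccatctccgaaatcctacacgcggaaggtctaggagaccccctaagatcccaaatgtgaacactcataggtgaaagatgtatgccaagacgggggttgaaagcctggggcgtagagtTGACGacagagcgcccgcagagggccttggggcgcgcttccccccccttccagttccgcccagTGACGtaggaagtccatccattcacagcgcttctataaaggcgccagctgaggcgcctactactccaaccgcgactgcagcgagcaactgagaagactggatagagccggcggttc
Fosb: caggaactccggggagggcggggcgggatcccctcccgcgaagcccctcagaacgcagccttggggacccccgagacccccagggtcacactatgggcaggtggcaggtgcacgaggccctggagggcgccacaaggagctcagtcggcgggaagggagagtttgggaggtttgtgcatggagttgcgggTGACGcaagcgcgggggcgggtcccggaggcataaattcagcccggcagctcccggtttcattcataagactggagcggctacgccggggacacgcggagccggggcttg
Nr4a1: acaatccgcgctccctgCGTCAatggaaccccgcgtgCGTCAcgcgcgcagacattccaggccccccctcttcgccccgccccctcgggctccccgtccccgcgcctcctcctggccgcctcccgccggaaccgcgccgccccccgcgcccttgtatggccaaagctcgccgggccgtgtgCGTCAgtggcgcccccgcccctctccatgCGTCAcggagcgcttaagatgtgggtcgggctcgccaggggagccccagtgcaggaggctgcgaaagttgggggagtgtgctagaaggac
Egr2: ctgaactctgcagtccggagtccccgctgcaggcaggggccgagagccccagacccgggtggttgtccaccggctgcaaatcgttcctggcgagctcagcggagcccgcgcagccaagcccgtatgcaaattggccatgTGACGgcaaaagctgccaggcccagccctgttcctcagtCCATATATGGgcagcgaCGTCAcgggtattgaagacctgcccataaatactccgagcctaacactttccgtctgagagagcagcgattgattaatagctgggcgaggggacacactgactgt
Fos has its 2 CRE cores at 129 and 66 bases before the start site, and Nr4a1 has 4, at 233, 213, 69 and 40 bases before it. In Egr2 the CArG box lies 72 bases before the start, between CRE cores at 111 and 55.

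Levels between genes were compared as CPM per kb of annotated exon. Egr1, Jun and Fos were the most abundant, at means over the 6 libraries of 92.0, 85.7 and 84.5 CPM per kb, and their ranges over libraries overlap. Ier2 followed at 22.0 and Junb at 16.9 CPM per kb, with overlapping ranges, and the highest library of Ier2 (31.7) lay below the lowest of Fos (41.5). Nr4a1 stood at 10.6, Fosl2 at 4.07, Egr2 at 2.98, Fosb at 2.28 and Klf4 at 1.65 CPM per kb. Each neighbouring pair in this lower stretch overlapped in range.

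No member differed between the labels by the main test, which did not use the replicate numbers. By edgeR's quasi-likelihood fit on the group alone, adjusted over 15087 genes, 0 of the 10 passed (adjusted p of 0.998 to 0.999), where 0% of genes were called. At an unadjusted p under 0.05 edgeR had 0 of the 10, DESeq2 1 (Nr4a1) and limma-voom 0, beside 3.47%, 2.59% and 3.70% of genes. By adjusted p, DESeq2 called 0 of the 10 where it called 0.0347% of genes, and limma-voom 0 of the 10 where it called 0%. Of all genes, 1.98% were higher at an unadjusted p under 0.05 in edgeR, and 226 of 15087 lower. In 0 of the 10 were the groups apart, against 8.60% of genes tested (3.73% apart and lower). The fitted change was below 0 in 8 of the 10 and above 0 in Fosl2 and Fos, with a median log2 fold change of -0.37. That lean depended on control 3: without it the median was 0.00, with 5 of the 10 below 0 and 5 above. Control 3 is also the control with 0 CPM of Y-linked genes, so without it only controls with Y-linked counts remain. Against control 3 alone the median was -0.71. The median was -0.66 without control 1 and -0.29 without control 2. With a library labelled knockout left out it was -0.30 to -0.53. Over all genes tested 50.0% were below 0 and the median was 6.6e-05.

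**Figure D1:**
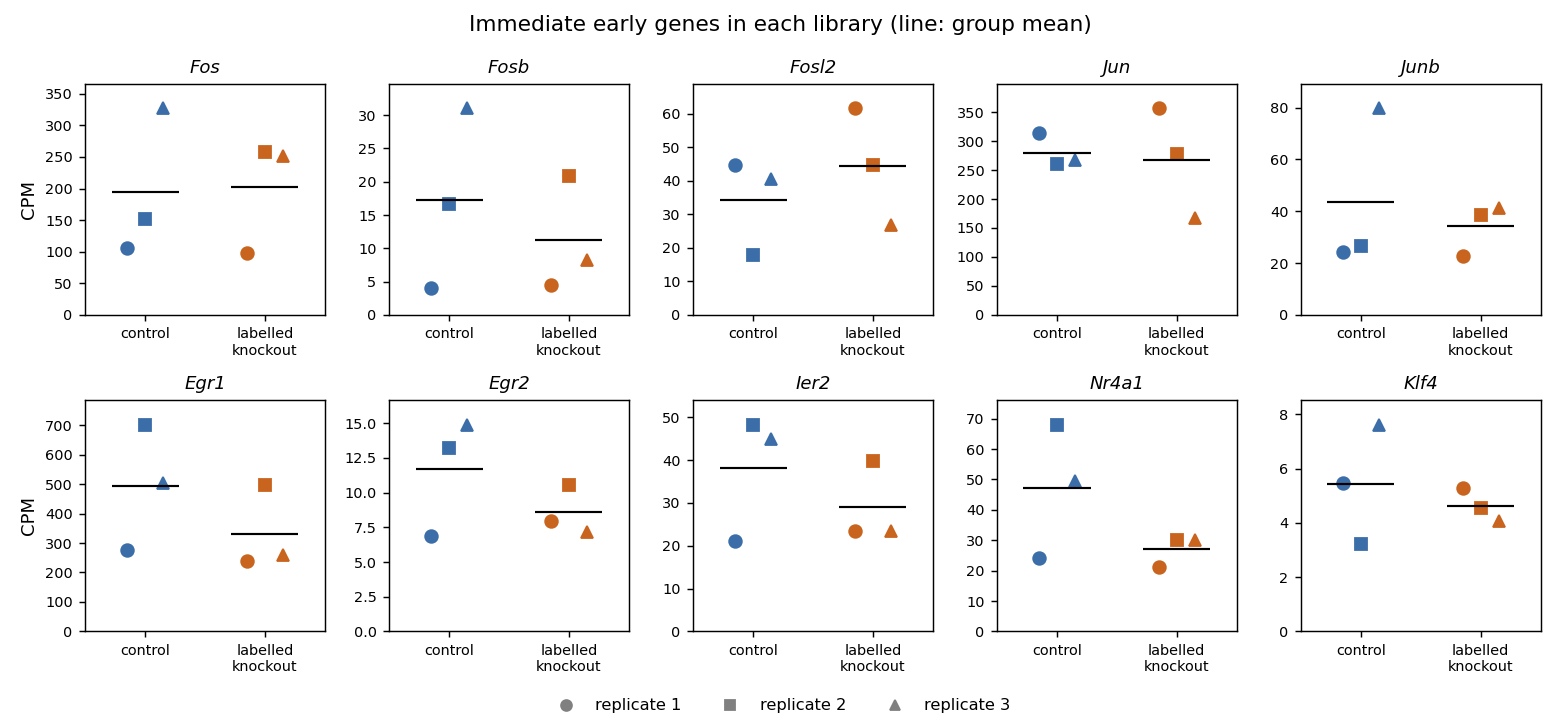
CPM of each of the 10 immediate early genes in each library, on a linear axis from 0 for each gene, with controls on the left in blue and libraries labelled knockout on the right in orange. Symbols give the replicate number and lines the group means. In every panel the groups overlap, and the circles of replicate 1 lie lowest of both groups in Fos, Fosb, Junb, Egr1, Ier2 and Nr4a1.

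Fos encodes the founding FOS protein, which binds DNA only as a dimer with a JUN protein. The gene lies on chromosome 12 from 85473890 to 85477273 on the plus strand (mm10). Its level was 106, 153 and 327 CPM in controls 1, 2 and 3 and 97.6, 257 and 251 CPM in libraries labelled knockout 1, 2 and 3. Both libraries numbered 1 were the lowest of their group, and control 3 was the highest of all 6. The group means were 195 ± 116 and 202 ± 90.4 CPM (SD, n = 3 each), which the fit gave as a log2 fold change of 0.05 ± 0.50 (SE) with a 95% interval from -1.12 to 1.22. The data therefore leave room for a change of either sign, and against control 3 alone the value was -0.70.

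Fosb encodes a FOS relative whose truncated splice form accumulates on repeated stimulation in the brain. Its gene lies on chromosome 7 from 19302696 to 19310051, minus strand. It was the most variable member, at 3.97, 16.6 and 31.0 CPM among controls, while 4.53, 20.9 and 8.31 CPM was measured in the knockout-labelled libraries. The highest library was 7.82-fold above the lowest, both of them controls. Between labels, the log2 fold change was -0.62 ± 0.78 (95% interval -2.44 to 1.21). Without control 3 it was 0.13, the opposite sign, and against control 3 alone -1.47.

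Fosl2 encodes FRA-2, a FOS family member that lacks the transactivation region of FOS and is known to follow it later. It maps to chromosome 5 from 32135801 to 32157842, plus strand. Its levels were 44.7, 17.8 and 40.6 CPM in the controls, against 61.7, 44.8 and 26.8 CPM in the knockout-labelled libraries. Its order ran against that of Fos: the libraries numbered 1 were the highest of their group. Its fitted log2 fold change was 0.37 ± 0.41, with an interval from -0.59 to 1.33, and 0.06 without control 2 or without library labelled knockout 1. Against control 3 alone it was 0.13.

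Jun encodes the JUN protein, which pairs with itself or with FOS proteins and is a substrate of the JNK kinases. It is a gene without introns on chromosome 4 from 95049034 to 95052222, minus strand. It was the steadiest of the members within groups, at 314, 260 and 267 CPM in controls 1 to 3, set beside 356, 277 and 167 CPM in the knockout-labelled libraries. Library labelled knockout 3 was the lowest and labelled knockout 1 the highest of all 6. The log2 fold change was -0.07 ± 0.27 (95% interval -0.70 to 0.56). The antisense RNA Junos overlaps it but averaged 1.97 CPM.

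Junb encodes a JUN relative with weaker activation, known to restrain JUN. Its locus is on chromosome 8 from 84974484 to 84978718, minus strand. It stood at 24.1, 26.5 and 79.7 CPM among controls, while 22.6, 38.6 and 41.3 CPM was measured in the knockout-labelled libraries. Control 3 stood apart from the other 5 libraries, as it was also the highest for Fos and Fosb. Between labels, the log2 fold change was -0.35 ± 0.49 (95% interval -1.49 to 0.80). It was 0.44 without control 3 and -1.22 against control 3 alone. Its last 351 bases overlap Prdx2 on the opposite strand, a gene at 213 to 240 CPM. No source used here gives the strand setting of the counting, so reads from the shared bases cannot be told apart.

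As a family, FOS transcripts were made up chiefly of Fos. Per kb of exon, Fos was 86.9% ± 5.23 of the summed Fos, Fosb, Fosl1 and Fosl2 level in the controls and 86.6% ± 10.3 in the knockout-labelled libraries (SD, n = 3 each). Fosl1, which encodes FRA-1, and Fosl2 together gave a larger part where Fos was low: Fosl1 reached 9.12% and 12.4% and Fosl2 8.31% and 11.5% in control 1 and labelled knockout 1. In the other 4 libraries Fosl1 was 2.12% to 6.37% and Fosl2 2.44% to 3.85%. On the JUN side, Jun was 82.3% ± 10.5 and 82.6% ± 8.94 of the summed Jun, Junb and Jund level. Junb made up 29.1% in control 3 and 25.2% in labelled knockout 3, against 8.02% to 16.04% in the other 4. Jund, in most tissues an abundant and steady member, was counted at only 0.646 to 1.90 CPM here. The JUN shares rest on that low count, and whether reads of Jund were lost in counting was not tested. The ratio of Fos to Jun per kb ran from 0.371 in labelled knockout 1 to 2.04 in labelled knockout 3. It was below 0.5 in both libraries numbered 1 and above 1.5 in both numbered 3, with values of both groups on each side. No test was made on these shares and ratios.

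**Figure D2:**
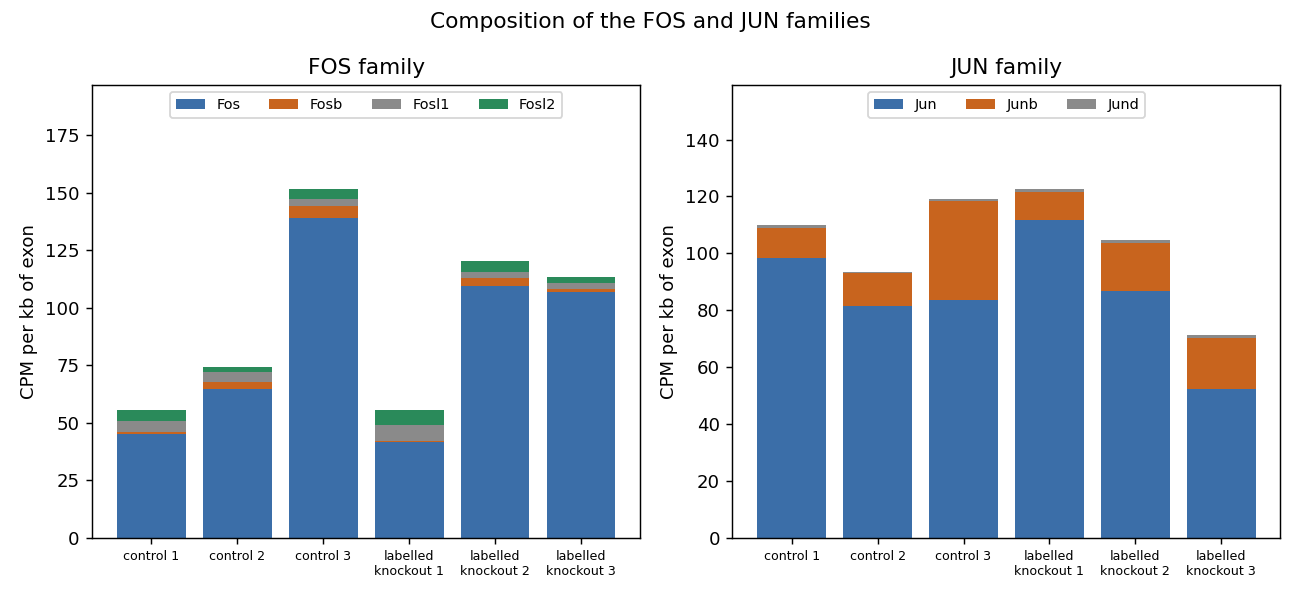
Stacked bars of the FOS family (left) and the JUN family (right) in CPM per kb of exon for each library, on linear axes from 0. Fos makes up 74.8% to 93.9% of its family, and the Fos total is lowest in control 1 and labelled knockout 1.

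Egr1 encodes a zinc finger transcription factor induced through SRF and ERK, and was the most abundant member. The gene lies on chromosome 18 from 34859823 to 34864984, plus strand. Its levels were 275, 701 and 505 CPM in the controls, against 239, 496 and 260 CPM in the knockout-labelled libraries. Control 2 was the highest library and labelled knockout 1 the lowest, and control 1 lay among the knockout-labelled libraries. The means were 494 ± 213 and 332 ± 143 CPM (SD, n = 3 each), which the fit gave as a log2 fold change of -0.57 ± 0.40 with a 95% interval from -1.53 to 0.38. It was -0.23 without control 2 and -0.98 without labelled knockout 2.

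Egr2, known as KROX20 and best known for myelination by Schwann cells, was far rarer. It lies on chromosome 10 from 67535475 to 67542188, plus strand. It stood at 6.90, 13.2 and 14.9 CPM in controls 1 to 3, set beside 7.98, 10.6 and 7.16 CPM in the knockout-labelled libraries. Controls 2 and 3 lay above the other 4 libraries. Its fitted log2 fold change was -0.45 ± 0.33 (95% interval -1.22 to 0.32). It was -0.71 without control 1, -0.23 without control 3 and -0.80 against control 3 alone, and in the DESeq2 fit with the replicate block it was -0.06 without pair 3.

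Nr4a1 encodes NUR77, an orphan nuclear receptor that acts without a known physiological ligand. It maps to chromosome 15 from 101266846 to 101274792, plus strand. It stood at 24.0, 67.9 and 49.6 CPM among controls, while 21.1, 30.1 and 30.2 CPM was measured in the knockout-labelled libraries. Controls 2 and 3 were above all the others, while control 1 lay within the knockout-labelled libraries. The means were 47.2 ± 22.1 and 27.1 ± 5.22 CPM (SD, n = 3 each). The log2 fold change of -0.80 ± 0.36 was the furthest from 0 of the 10, with a 95% interval from -1.65 to 0.05 (edgeR unadjusted p = 0.0626, adjusted p = 0.998). It was -1.11 without control 1 and -0.44 without control 2. The authors' deposited table gives Nr4a1 0.80 as the log2 of control over knockout, with an unadjusted p of 0.0294 and an adjusted p of 0.999993, and marks 0 of the 10 as significant.

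Ier2 encodes a short nuclear protein and is a fast target of growth factors. Its locus is on chromosome 8 from 84661331 to 84662852, minus strand. It stood at 21.2, 48.2 and 44.8 CPM in the controls, against 23.5, 39.8 and 23.5 CPM in the knockout-labelled libraries. Its order followed Egr1, with control 2 highest, and controls 2 and 3 and labelled knockout 2 above the other 3. Between labels, the log2 fold change was -0.40 ± 0.35 (95% interval -1.22 to 0.43). It was -0.69 without labelled knockout 2, -0.19 without control 2 and -0.63 against control 3 alone, and in the DESeq2 fit with the replicate block it was -0.07 without pair 3.

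Klf4 encodes a zinc finger factor known as a reprogramming factor. The gene lies on chromosome 4 from 55527143 to 55532466, minus strand, and was the rarest member, with 60 to 133 counts a library. It stood at 5.47, 3.23 and 7.61 CPM in controls 1 to 3, set beside 5.29, 4.54 and 4.07 CPM in the knockout-labelled libraries. Both extremes were controls. Its fitted log2 fold change was -0.23 ± 0.35 (95% interval -1.06 to 0.60). It was 0.10 without control 3 and -0.72 against control 3 alone.

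**Figure D3:**
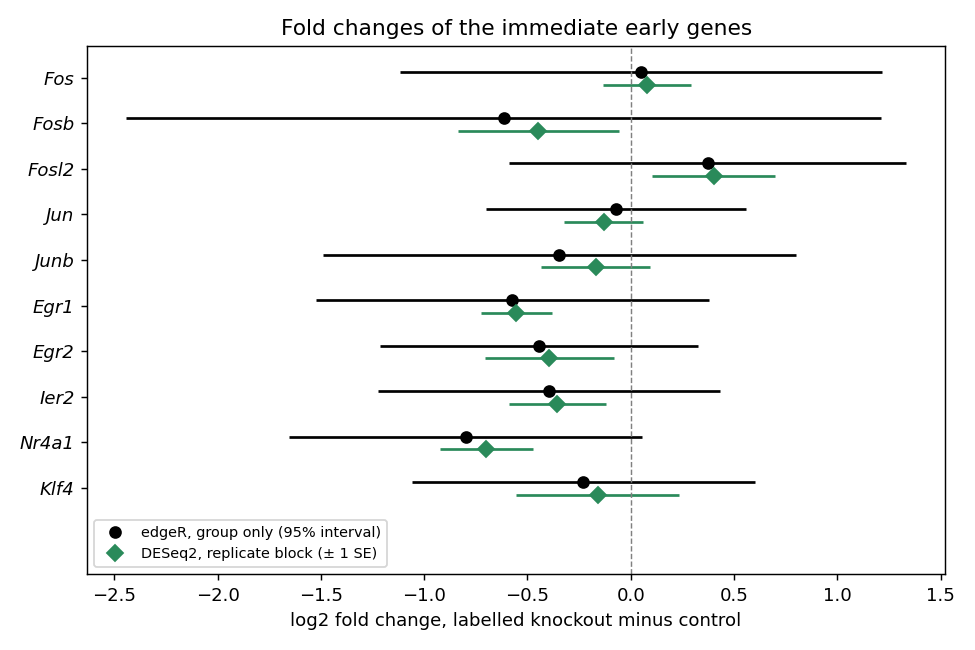
Log2 fold changes of the 10 genes, labelled knockout minus control. Black circles with 95% intervals are edgeR's fit on the group alone, each interval spanning 0, and green diamonds with bars of 1 SE are DESeq2's fit with the replicate number as a block, where Egr1 (-0.55) and Nr4a1 (-0.70) are called.

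The within-group spread was large for most members. The SD of log2 CPM within groups had a median of 0.61 over the 10 against 0.28 over all genes tested. It was 1.31 for Fosb, which 1.10% of genes tested exceeded, and 0.81 for Fos, which 8.15% exceeded. Jun, at 0.41, was exceeded by 32.8%. The highest library stood 2.14-fold (Jun) to 7.82-fold (Fosb) above the lowest.

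The full order of the 3 numbers was the same in both groups for Junb, Egr1 and Ier2. For Ier2, labelled knockout 1 and 3 were near equal, at 23.47 and 23.50 CPM. No share over all genes was computed for this match of order. Across all genes, deviations from the group means correlated at 0.35 to 0.51 between libraries of the same number. Replicate 1 was the lowest control in 7 of the 10 members and the lowest library labelled knockout in 6. It was the lowest of both groups in 6, Fos, Fosb, Junb, Egr1, Ier2 and Nr4a1, against 12.2% of genes tested. The 10 genes are known to be induced together, so they are not 10 independent readings. The members that departed from this order were Jun and Fosl2, both highest in control 1 and labelled knockout 1, Klf4, and Egr2, whose lowest library labelled knockout was number 3. In bulk RNA, fewer responding cells and less RNA per cell cannot be told apart.

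**Figure D4:**
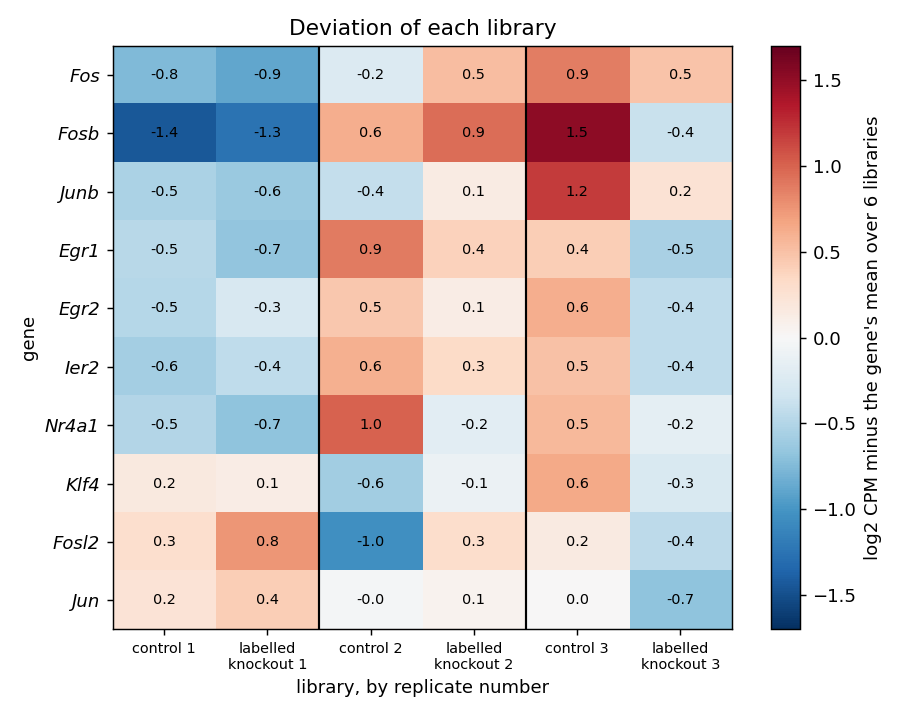
Log2 CPM of each gene minus its mean over the 6 libraries, in blue below and red above the mean, with libraries ordered by replicate number and separated by lines. The first 7 rows are below 0 in both libraries numbered 1, while Fosl2 and Jun are above 0 there.

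Compared within numbers, Egr1 and Nr4a1 were lower in the knockout-labelled libraries in all 3 pairs, 2 of the 10 against 18.0% of genes tested, and 0 of the 10 were higher in all 3. The pair differences in log2 CPM were -0.20, -0.50 and -0.96 for Egr1 and -0.18, -1.17 and -0.71 for Nr4a1. For Ier2 they were 0.15, -0.27 and -0.93, and for Fos -0.12, 0.75 and -0.38. DESeq2 with the replicate number as a block called 2 of the 10, where it called 3.70% of 12513 genes (2.48% as lower). Egr1 fell with a log2 fold change of -0.55 ± 0.17 (SE; adjusted p = 0.0410) and Nr4a1 with -0.70 ± 0.22 (adjusted p = 0.0480). With the same block edgeR called 0 of the 10 and 0% of genes, with adjusted p of 0.250 for Egr1 and 0.241 for Nr4a1, and limma-voom likewise called 0 (0.240 and 0.198). Leaving out any numbered pair ended both DESeq2 calls. The adjusted p of Egr1 was then 0.106, 0.0709 and 0.971 without pairs 1, 2 and 3, and that of Nr4a1 0.0646, 0.666 and 0.563. The log2 fold change of Egr1 was -0.74, -0.58 and -0.35 without pairs 1, 2 and 3, and that of Nr4a1 -0.95, -0.45 and -0.69, so the value shrank in some of these fits and not in others.

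Summed levels of mitotic and astrocyte genes also differed within the same pairs. A list of 18 mitotic genes summed to 2209, 3954 and 1433 CPM in controls 1 to 3 and 950.0, 2560 and 684 CPM in libraries labelled knockout 1 to 3, lower in each pair. Number 2 was highest in both groups, as it was for Egr1 among the libraries of either group. A list of 8 astrocyte genes summed to 5779, 2240 and 11657 CPM among controls, while 7796, 7366 and 19462 CPM was measured in the knockout-labelled libraries, higher in each pair. Oligodendrocyte genes were higher in 8 and lower in 3 of 11 tested, and neuron genes higher in 5 and lower in 2 of 7. At an unadjusted p under 0.05 edgeR on the group had 7 of the 11 oligodendrocyte genes, 5 higher and 2 lower (3.47% of all genes tested). Groups were apart in 4 of them higher and 3 lower (8.60% of all genes tested). DESeq2 on the group alone called 1 by adjusted p, Mbp, as higher, where it called 0.0347% of genes. Ependymal genes summed to 15.7 to 62.8 CPM over the 6 libraries. With the block, DESeq2 called 3.70% of 12513 genes over the whole table, 2.48% as lower. In these lists it called 18 of the 18 mitotic genes, all lower, and 5 of the 8 astrocyte genes, all higher. It called 6 oligodendrocyte genes higher and 2 lower, 1 neuron gene (Dcx) higher and 1 of the 12 neural stem cell genes (Nes) lower. EdgeR with the block called 0 of these. The part of these genes in the values of Egr1 and Nr4a1 was not tested.

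Other immediate early genes, 49 in a list that holds none of the 10, did not share a direction. Of the 46 tested, 23 were higher and 23 lower in the knockout-labelled libraries, with a median log2 fold change of 0.00. EdgeR called 0 by adjusted p and 5 at an unadjusted p under 0.05 (3.47% of all genes tested). Of these, 4 were lower, as were 226 of the 15087 genes tested, and Ptgs2, the inducible cyclooxygenase, was higher, as were 1.98%. DESeq2 and limma-voom called 0 by adjusted p. The groups were apart in 4 of the 46 (8.60% of all genes tested), 3 of them lower (3.73%). DESeq2 with the block, which had p-values for 49, called 3, all lower, where it called 3.70% of 12513 genes (2.48% as lower). They were Egr4, an EGR relative, Dusp6, the cytosolic phosphatase that turns off ERK, and Arc, a synaptic capsid-like protein gene of active neurons. EdgeR and limma-voom with the block called 0 of the 46.

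Egr4 stood at 9.44, 7.32 and 14.2 CPM in the controls, against 4.26, 5.08 and 3.44 CPM in the knockout-labelled libraries, with the groups apart. Its blocked DESeq2 value was -1.24 ± 0.36 (SE; adjusted p = 0.0232), and 0.348, 0.0110 and 0.957 were the adjusted p without pairs 1, 2 and 3, at log2 fold changes of -1.29, -1.59 and -0.84. Dusp6 stood at 150, 184 and 222 CPM against 112, 136 and 57.7 CPM, also apart. Its blocked value was -0.92 ± 0.26 (DESeq2 adjusted p = 0.0170), with adjusted p of 0.0314, 0.810 and 0.705 without pairs 1, 2 and 3, at log2 fold changes of -1.19, -1.18 and -0.43. Arc stood at 12.4, 21.6 and 14.3 CPM against 5.72, 13.0 and 3.90 CPM, lower in each pair though the groups overlap. Its blocked value was -1.22 ± 0.29 (DESeq2 adjusted p = 0.00225), with adjusted p of 0.128, 0.0101 and 0.369 without pairs 1, 2 and 3, at log2 fold changes of -1.29, -1.48 and -0.92.

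Among the 2 NAB genes, whose proteins bind EGR factors and repress their targets, Nab2 stood at 37.6, 41.9 and 37.5 CPM in controls 1 to 3, set beside 36.3, 31.5 and 21.9 CPM in the knockout-labelled libraries. The groups were apart, and the gene overlaps Nemp1 and Stat6 on the opposite strand. Nab1 stood at a log2 fold change of -0.24 ± 0.25, and edgeR gave both an adjusted p of 0.998.

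Upstream kinases and SRF partners had lower median within-group SDs of log2 CPM than the members (0.61), though Fgfr2 (0.68), Mapk12 (0.68) and Rps6ka1 (0.65) lay above that median. The 6 genes of SRF and its ETS and MRTF partners had a median within-group SD of 0.15, with 5 lower, 1 higher and a median log2 fold change of -0.24. Srf stood at 30.3, 42.3 and 35.9 CPM among controls, while 30.5, 30.9 and 30.9 CPM was measured in the knockout-labelled libraries, a log2 fold change of -0.23 ± 0.16. In the 22 genes of the ERK cascade 9 were higher and 13 lower, with a median of -0.03 and a median within-group SD of 0.17. Mapk3, which encodes ERK1, stood at 77.3, 70.4 and 84.9 CPM against 92.1, 108 and 108 CPM, with groups apart (0.41 ± 0.13; edgeR unadjusted p = 0.0142, adjusted p = 0.998). Nras, the small GTPase above RAF, stood at 0.28 ± 0.11 with groups apart, and Egfr, the EGF receptor, at 0.05 ± 0.20. JNK and p38 kinases and their activators were lower in 11 of 12 tested, with a median of -0.08. In that list Map2k4, a JNK kinase, stood at -0.21 ± 0.10 and Mapk10, which encodes JNK3, at 0.37 ± 0.19. In these 3 lists edgeR, DESeq2 and limma-voom called 0 genes by adjusted p with or without the block.

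Among 19 other bZIP genes, from which AP-1 proteins draw further partners, 10 were higher and 9 lower, with a median of 0.03. Of the CREB genes in that list, Creb1 had a within-group SD of 0.35 and Creb5 of 0.78. Nfe2l1, the highest of them in CPM without regard to length, stood at a log2 fold change of -0.07 ± 0.22. SRF targets of the cytoskeleton, which SRF drives with MRTF and not with ETS factors, were higher in 5 and lower in 6 of the 11 tested, with a median of -0.05, and Actb stood at -0.16 ± 0.26. Heat shock genes, induced beside immediate early genes when tissue is dissociated, were higher in 5 and lower in 6 of 11 tested, with a median of 0.00. Hspa1b stood at 7.59, 3.39 and 5.84 CPM in the controls, against 17.6, 11.1 and 5.73 CPM in the knockout-labelled libraries. It was highest in labelled knockout 1, where Fos was lowest. Hspa1b and its neighbour Hspa1a are near-identical copies, so reads may be split between them. In these lists too, edgeR, DESeq2 and limma-voom called 0 genes by adjusted p with or without the block.

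The genes whose profile over the 6 libraries was most like the mean of the members were searched among 11646 other genes, so high values are expected among so many and carry no p. The highest Pearson's r over the 6 libraries was 0.98 for Kcnc4, which encodes a voltage-gated potassium channel subunit, and 0.98 for Col4a2, a basement membrane collagen chain. Next came Ptcd2, Plcl1, Kdelc1 and Zfp641 at r of 0.96. Kcnc4 stood at 5.75, 11.3 and 23.7 CPM in controls 1 to 3, set beside 5.40, 15.5 and 5.04 CPM in the knockout-labelled libraries, the order of Fosb among the controls. The most opposed were Kdm4a, a histone demethylase gene, and Zmym5 at r of -0.98, with Uhrf1bp1l at -0.98 and Wdr77 at -0.96. Like Fos alone were Myrip (r = 0.997), Rad51d and Ccdc130 (0.99 each) and Ptgds, the prostaglandin D synthase gene, at 0.99. Ptgds stood at 47.9, 78.4 and 142 CPM among controls, while 41.1, 106 and 115 CPM was measured in the knockout-labelled libraries. Like Fos, it was lowest in the libraries numbered 1 and highest in control 3.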

How the data were processed

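RNA-seq counts of 6 libraries of mouse neural stem cells were analysed. The submitters' processing notes name HISAT2 2.1.0, Bowtie2 2.2.3 and mm10 and give no role for each. How reads were counted, on which strand and on which annotation, is not given. The deposited table holds raw counts per gene, per the file headers and the values, and, by the authors, a mean of scaled counts (a signal), a fold change (ratio), its log2, and raw and adjusted p-values (p-value). Their log2 ratio is control over knockout: with the sign turned it differed from DESeq2's by at most 1.7e-05 over the 10 genes. In GENCODE M21, 9 of the 10 have the deposited start and end.

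Genes were tested with edgeR 4.0.16 in R 4.3.3: TMM scaling, filterByExpr (at least 10 counts, 15 in total), glmQLFit with robust = TRUE and glmQLFTest for group, and Benjamini-Hochberg adjustment at 0.05 over 15087 genes. The fit was tested on simulated counts first. Standard errors come from the F statistic. Log2 CPM used a prior count of 2, and exon length is the union of GENCODE M21 exons. A level of 1 CPM was 16.7 to 18.6 counts, which sets the counting error of the rarest members. Alternatives were DESeq2 1.42.0, limma-voom (limma 3.58.1), other scalings and filters, a replicate block and left-out libraries. DESeq2 with the block and without each pair was added after seeing the data.

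Both groups carry replicate numbers 1 to 3 in their titles. Deviations from the group means correlated across genes, between libraries of the same number, at 0.43, 0.35 and 0.51. The mean was 0.43, and at most 0.10 for the other 5 of 6 possible pairings. The labels do not state a pairing, so the main fit was on the group alone. The replicate number was a block in alternative fits only.

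The members, the gene lists and the alternatives were chosen with earlier results of these data known. Named were all 10 members, Sirt6, and from each list genes past the threshold or else the most abundant and the 2 of smallest p. The naming was then narrowed to the lists of signalling and transcription, with fewer genes in some. Genes called by DESeq2 with the block were added after their values were seen, as were Ptgs2, Nab1 and the FOS and JUN relatives. The profile search took tested genes other than the members, with a mean of at least 2 CPM. Symbols that start with Gm and a digit or end in Rik were left out.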

Additional observations from a re-analysis of the deposited data

How the results depend on the processing

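Of the 10 genes, 0 were called by edgeR under any other scaling, filter or left-out library, by DESeq2 or limma-voom on the group alone, or by edgeR or limma-voom with the replicate block. DESeq2 with the replicate block called 2, Egr1 at -0.55 and Nr4a1 at -0.70, and changed no other call among the 10 or of Sirt6. The signs of Egr1, Egr2, Ier2 and Nr4a1 held in all 19 alternatives, though Egr1 ran from -0.98 to -0.23, Egr2 from -0.71 to -0.06, Ier2 from -0.69 to -0.07 and Nr4a1 from -1.11 to -0.44 with libraries or pairs left out, and that of Sirt6 in all 16. Over all genes the calls were 0 by edgeR, 6 by DESeq2, 463 by DESeq2 with the replicate block, 1 by edgeR with no filter, and 0 to 2 with a library left out (1 without control 1, 2 without control 3).

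Signs turned for the other 6 members. Against control 3 alone Fos was at -0.70 and Jun at 0.00, and the median of the 10 was -0.71. With libraries or pairs left out, Fos ran from -0.25 to 0.65, Fosb from -1.42 to 0.26, Fosl2 from -0.06 to 0.89, Jun from -0.33 to 0.18, Junb from -0.63 to 0.44 and Klf4 from -0.50 to 0.22. Without control 3, Fosb was 0.13 and Klf4 0.10. In the blocked DESeq2 fits, Fos was -0.25 and Fosl2 -0.06 without pair 2. Without pair 3, Fosb was 0.26, Jun 0.14, Junb 0.22 and Klf4 0.22. The cause was not tested. With 3 libraries a group and this spread, the 95% interval of Fos alone runs from 0.460-fold to 2.32-fold.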
